A study of Mus musculus with 4 samples.

Results

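The regions described here are the accessible chromatin regions of 3 genes of the Foxp family, Foxp1, Foxp2 and Foxp4, in cervical motor neurons of mouse embryos. The assay was ATAC-seq, which reads open chromatin from the places where a transposase can insert adapters, on cells sorted for the ChAT::GFP transgene, a reporter of cholinergic neurons, at embryonic day 12.5. There were 2 Hoxa5-deficient libraries (called mutants below) and 2 control libraries from littermates, and all 4 carry the reporter. The labels name neither the Hoxa5 allele nor the number of embryos behind a library, so the spread between libraries of a group may be technical. Peak intervals of the 4 deposited lists were merged where they shared 1 bp, and each merged region went to the protein-coding gene body that holds its midpoint, or else to the nearest body within 100 kb. Of 199576 regions, 165822 were assigned to a gene in this way and 195 to the Foxp genes. Foxp1 had 114 of them, Foxp2 had 56 and Foxp4 had 25. The family was chosen by peak presence and rank in these same 4 libraries, so counts, ranks and heights below are descriptions and carry no test of their own. The farthest region counted lay 69.4 kb from Foxp1, 45.2 kb from Foxp2 and 51.8 kb from Foxp4, and the nearest one beyond the limit of 100 kb lay 147.9 kb from Foxp1.

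Foxp proteins bind DNA through a forkhead domain and pair with each other through a leucine zipper, mostly to repress transcription. In the spinal cord Foxp1 works with Hox proteins to set motor neuron columns: it is high in the lateral motor column, which supplies the limbs, lower in preganglionic motor neurons, and low or absent in medial and hypaxial columns. Foxp2 and Foxp4 act in the neuroepithelium, where they restrain N-cadherin and help newborn neurons detach, and Foxp2 is also made by a class of ventral interneurons. The other family member, Foxp3, is a regulator of T cells and is not described here.

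Foxp1 occupies chromosome 6 from 98925342 to 99522746 (mm10, 597.4 kb), Foxp2 lies on the same chromosome from 14901349 to 15441977 (540.6 kb), and Foxp4 spans 57.5 kb of chromosome 17, from 47867133 to 47924632. Promoter windows, from 250 bases before to 50 after an annotated start, were found in RefSeq (GRCm38.p6, the coordinates of mm10) for 2 of the 3 genes. Foxp1 has 3 such windows, called upstream, middle and downstream in the direction of transcription, and Foxp4 has 1. They are shown because each one overlaps a region open in all 4 libraries. All are on the minus strand, printed from 5′ to 3′, with capitals for matches to the motifs searched.
Foxp1 upstream start (chr6:99520944-99521243): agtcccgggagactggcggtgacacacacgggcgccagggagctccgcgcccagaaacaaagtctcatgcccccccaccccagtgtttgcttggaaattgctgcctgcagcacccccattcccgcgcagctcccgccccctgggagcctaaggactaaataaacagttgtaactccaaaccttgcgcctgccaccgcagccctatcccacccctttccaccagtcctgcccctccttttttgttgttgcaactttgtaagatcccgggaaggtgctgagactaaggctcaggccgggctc
Foxp1 middle start (chr6:99266466-99266765): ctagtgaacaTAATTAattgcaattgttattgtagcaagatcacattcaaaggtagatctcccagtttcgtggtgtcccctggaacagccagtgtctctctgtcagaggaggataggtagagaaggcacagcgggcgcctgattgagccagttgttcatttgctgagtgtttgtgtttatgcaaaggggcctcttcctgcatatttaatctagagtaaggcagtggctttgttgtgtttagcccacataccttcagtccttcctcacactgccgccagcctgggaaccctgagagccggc
Foxp1 downstream start (chr6:99028249-99028548): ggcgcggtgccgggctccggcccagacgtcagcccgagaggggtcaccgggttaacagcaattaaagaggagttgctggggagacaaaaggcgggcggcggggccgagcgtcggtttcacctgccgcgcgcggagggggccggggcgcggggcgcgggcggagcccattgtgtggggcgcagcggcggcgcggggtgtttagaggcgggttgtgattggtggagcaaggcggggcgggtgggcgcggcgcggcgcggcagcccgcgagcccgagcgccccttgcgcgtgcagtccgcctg
Foxp4 start (chr17:47924583-47924882): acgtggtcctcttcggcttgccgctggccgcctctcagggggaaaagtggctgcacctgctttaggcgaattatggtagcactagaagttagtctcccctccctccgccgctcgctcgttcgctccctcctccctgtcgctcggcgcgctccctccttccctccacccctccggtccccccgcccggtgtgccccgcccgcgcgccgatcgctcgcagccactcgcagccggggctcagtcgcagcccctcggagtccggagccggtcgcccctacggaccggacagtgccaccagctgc
The downstream Foxp1 window and the Foxp4 window are rich in C and G, at 75.3% and 70.3% with 44 and 33 CG pairs, against medians of 52.7% and 7 over 32851 promoter windows. The upstream Foxp1 window has 60.3% and 13 CG pairs, and the middle one has 48.7% and 5. Both strands were searched for a forkhead core (TGTTTAC), a Hox core (TAATTA) and a Hox-Pbx site (TGATTNAT), which 3.65%, 5.29% and 3.22% of all windows hold. The 1 match was TAATTA at base 11 of the middle Foxp1 window, and these letters were not found in the other 3 windows.

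At each gene 1 end lay in a region open in every library, and so did the downstream start of Foxp1. Ratios of mean height, mutant over control, were 0.86 to 1.03 at the 3 ends and 1.22 at that start. Heights are given as tags piled up at the summit, recovered from the authors' fold enrichment and −log10 p. The downstream Foxp1 start lay in the Foxp1 region with the highest mean rank (99027838 to 99028961), with 182 and 250 tags in mutants, against 166 and 141 in controls. Divided by each library's genome-wide background, which scales with depth (5.14 and 6.06 tags in mutants, 5.43 and 4.39 in controls), this is 38.4 ± 4.14 in mutants and 31.4 ± 1.12 in controls (SD, n = 2 each), a ratio of 1.22. To compare libraries of different list length, a region was also ranked by −log10 p among the regions called in all 4 libraries, as a percentile. On this scale the region stood at 83.8 and 83.3 in mutants, against 82.0 and 83.4 in controls, so the genotypes overlapped in rank, though not in height. In sorted cells, fewer cells with an open region and less open chromatin per cell cannot be told apart.

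The region over the upper-coordinate end of Foxp1 (99522516 to 99523717) had 162 and 221 tags in mutants, against 237 and 155 in controls. Its percentiles were 79.1 and 78.1 in mutants, against 86.6 and 81.8 in controls, lower in both mutants by 5.6 points on average. Foxp4 had its strongest region at its own upper end, where its annotated start lies (47923865 to 47925358). Summits there held 193 and 279 tags in mutants, against 278 and 187 in controls, and its percentiles of 85.3 and 84.9 in mutants lay under the 91.2 and 88.1 of controls. At the lower end of Foxp2 (14900440 to 14902018) there were 77 and 94 tags in mutants, against 71 and 72 in controls. Percentiles of 63.7 and 56.5 in mutants and 56.5 and 64.0 in controls overlapped at this end. The height ratios of these 3 gene ends were 0.86, 0.89 and 1.03. Shared regions at any gene had a median ratio of 1.09, taken from 2562 of 3000 drawn at random. Those kept lay under a set limit of −log10 p and had a height recovered in every library. The strongest regions are therefore missing from that sample.

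Weaker regions beside the other Foxp1 starts ranked lower in mutants. The upstream window overlaps a region of 242 bp (99520879 to 99521120) by 177 bp, which had 37 and 53 tags in mutants, against 74 and 51 in controls. Its percentiles of 3.2 and 9.0 in mutants lay under the 39.1 and 26.0 of controls. Ranked by fold enrichment, the difference of -26.5 points was -7.1 and the call was lost. The middle window, the one with the Hox core, lies inside a region (99266289 to 99266914) with 15 and 26 tags in mutants, against 24 and 23 in controls. Its percentiles were 3.1 and 14.9 in mutants, against 20.3 and 25.9 in controls, a difference of -14.1 points that was -6.9 and no longer called without mutant library 1. The smallest pileup that could be called at the genome-wide background was 11 and 12 tags in mutants and 12 and 10 in controls, close to the weaker of these summits.

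**Figure D1:**
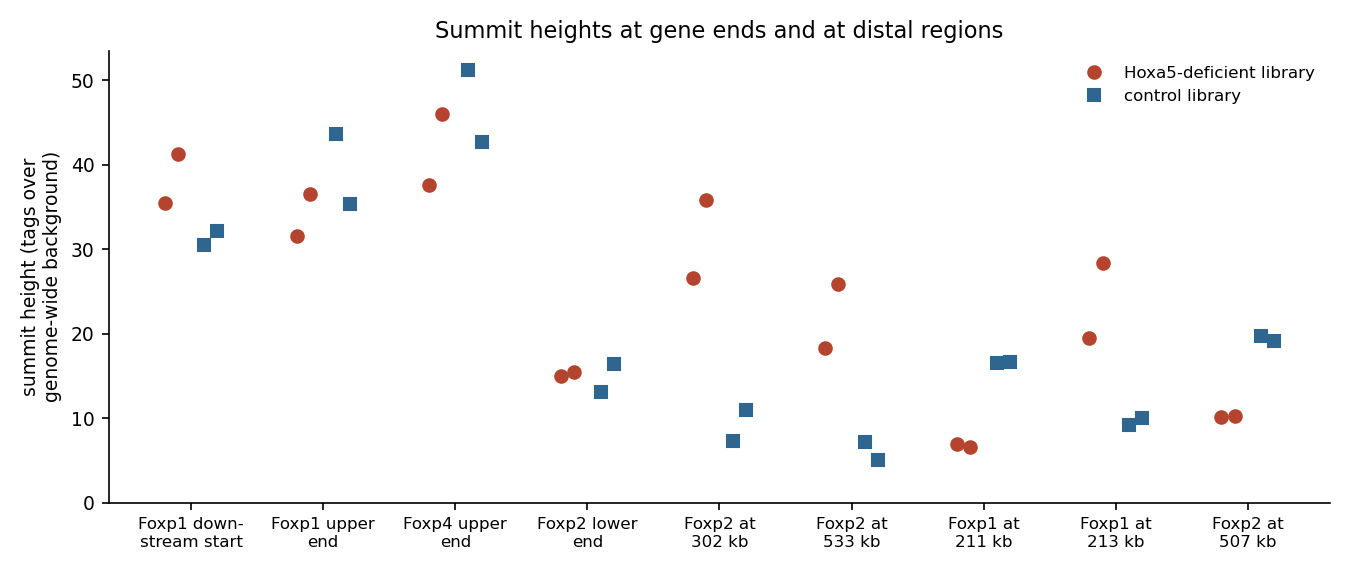
Summit height (tags at the summit over the genome-wide background of the library) at 3 gene ends, at the downstream Foxp1 start and at 5 distal regions named by distance from the lower-coordinate end of their gene, 1 point per library, Hoxa5-deficient libraries as circles and control libraries as squares. At the gene ends and the start the ratios of mean heights run from 0.86 to 1.22. The distal regions were picked from the called ones and include the lowest and highest ratios of the family, 0.41 and 3.62. Quartiles over all shared Foxp regions are 0.81 and 1.62, beside 0.83 and 1.46 in a sample of shared regions at any gene that leaves out the strongest.

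By count, Foxp1 and Foxp2 had more accessible regions in the mutant libraries, and Foxp4 did not. Foxp1 had 74 and 88 regions in mutants, against 64 and 70 in controls. Foxp2 had 38 and 40 regions in mutants, against 29 in each control. Foxp4 had 19 in each mutant, against 19 and 22 in controls. In these counts the genotypes did not overlap at Foxp1 or Foxp2 and touched at Foxp4. Mutant lists were longer as a whole, with 101452 and 111256 assigned regions in mutants, against 95026 and 91206 in controls. Scaled to the assigned regions of each library, the genotypes overlapped at Foxp1. On that scale Foxp2 stayed higher in both mutants, and Foxp4 lay lower in both. The ratio of means, mutant over control, was 1.21 for Foxp1, 1.345 for Foxp2 and 0.927 for Foxp4, beside 1.14 for all assigned regions. With the same number of top peaks taken from every library these ratios were 1.045, 1.14 and 0.875, beside 0.933 for all.

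**Figure D2:**
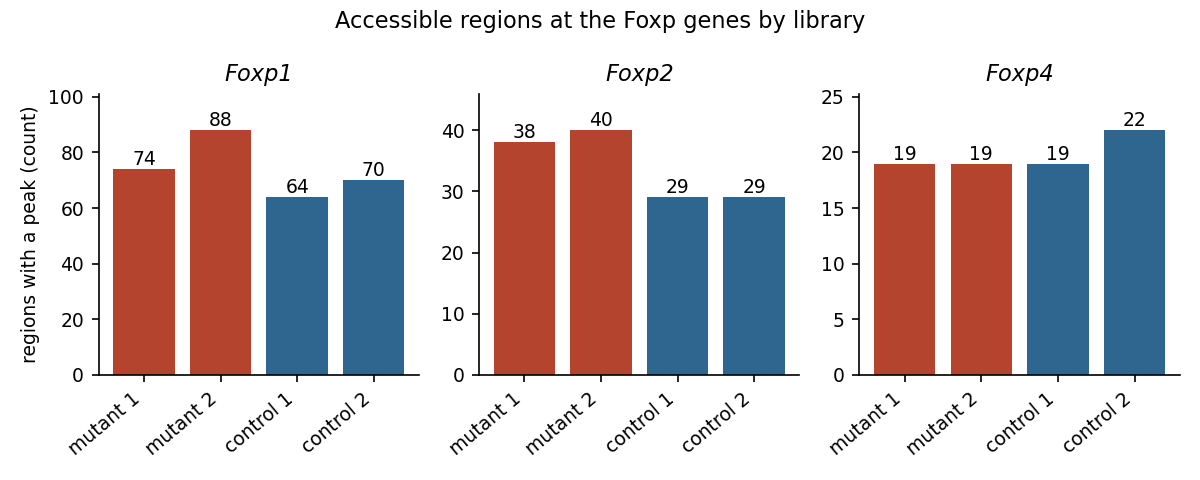
Number of regions with a peak at each Foxp gene in each library, Hoxa5-deficient libraries in red and control libraries in blue, axes starting at 0. Both mutant bars stand above both control bars at Foxp1 and Foxp2, while at Foxp4 the mutant bars of 19 equal the lower control bar.

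Regions with a peak in all 4 libraries numbered 42 at Foxp1, 18 at Foxp2 and 15 at Foxp4, which is 36.8%, 32.1% and 60.0% of their regions, beside a background of 34.7% of all assigned regions. Those found in a single library were 28.9%, 28.6% and 12%, beside 38.5%, and those in 3 libraries were 14.9%, 7.14% and 8%, beside 9.66%. Foxp1 was densely covered: its body held 107 regions, while 7 of 89 protein-coding genes from 500 to 650 kb long held more and their median was 53. Foxp2, of similar length, held 50 in its body and had a stretch of 64.7 kb with none. Foxp4 held 16 in its body, and 17 of 1085 genes from 50 to 65 kb long held more.

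Mutant-only regions, with a peak in both mutants and neither control, were most frequent at Foxp2. They numbered 10 at Foxp1, 11 at Foxp2 and 2 at Foxp4 (8.77%, 19.6% and 8.0% of their regions), beside a background of 9.16% of assigned regions. Control-only regions, the reverse, numbered 5, 2 and 3 (4.39%, 3.57% and 12%), beside 3.50%. Over the 3 genes, 23 mutant-only and 10 control-only regions give 2.3 to 1, near the 2.61 to 1 of all assigned regions, and 12 regions (6.15%) were in exactly 1 mutant and 1 control, beside 4.48%. Without mutant library 1 or 2 the mutant-only total was 47 or 35, since 1 library then suffices, and the background was 23.6% or 19.8%. Without control library 1 or 2 the control-only total was 25 or 20, beside a background of 13.1% or 15.1%.

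The strongest mutant-only region lay inside Foxp1, 277.8 kb from its lower-coordinate end (99202840 to 99203388). It had 73 and 89 tags in mutants, at percentiles of 75.9 and 74.1 within the whole lists, and no peak in either control. A shared region lay just beside it (99201231 to 99202371), with percentiles among shared regions of 53.3 and 56.2 in mutants, against 62.5 and 68.5 in controls, a call kept in 6 of 10 alternatives. Beyond that shared region came a control-only region (99200646 to 99200972) with 32 and 23 tags in controls. All 3 kinds of region thus lay within 3 kb of Foxp1 sequence.

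A second strong mutant-only region of Foxp1 (99399797 to 99400430) had 38 and 51 tags in mutants, at whole-list percentiles of 68.5 and 70.8. The highest-ranking mutant-only region of Foxp2 (15396207 to 15396801) had 44 and 47 tags in mutants, at 65.1 and 61.0. The next one in Foxp2 (15201460 to 15202003) had 49 and 56 tags, at 57.9 and 52.9. The other mutant-only regions of the family were weak, with 13 to 34 tags in mutant library 1 and 13 to 46 in mutant library 2, apart from 1 Foxp2 region near the upper end of the gene (15409884 to 15410406) with 46 and 54 tags over a high local background. Of all 23, 21 lay inside a gene body. The exceptions were 36.61 kb from Foxp1 and 6.17 kb from Foxp4.

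Of the control-only regions, 1 stood far above the rest. It lies inside Foxp2, 281.7 kb from the lower-coordinate end (15182818 to 15183323), and had 110 and 74 tags in controls, at whole-list percentiles of 87.0 and 81.7, with no peak in either mutant list. The next shared region of Foxp2, under 2 kb away (15184612 to 15185249), was weak in all libraries. The lists as read here, limited to the autosomes, X and Y, lack from 323 to 363 peak numbers each. These include any peaks on other sequences, and whether a peak was taken out here before deposit was not tested. The other control-only regions had 13 to 36 tags in control library 1 and 14 to 23 in control library 2. The Foxp1 ones were at 99097040 to 99097619, 99135410 to 99135703, 99200646 to 99200972 and 99283126 to 99283526, and 69.41 kb outside the gene. Those of Foxp4 were at 47887407 to 47887603, 47897339 to 47897626 and 47898237 to 47898716, all in the body. The remaining one of Foxp2 was at 15404984 to 15405285.

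Among regions open in all 4 libraries, those of Foxp2 moved most in rank, and more often upward in mutants. A shared region is called higher or lower here when both mutant percentiles lie on 1 side of both control percentiles and the means differ by 10 points or more. At Foxp2, 8 of 18 shared regions ranked higher in mutants and 4 ranked lower. At Foxp1, 12 of 42 ranked higher and 10 lower, and at Foxp4 1 of 15 ranked higher and 4 lower. As shares, higher calls were 44.4% at Foxp2, 28.6% at Foxp1 and 6.67% at Foxp4, beside a background of 17.7% of 57559 shared regions. Lower calls were 22.2%, 23.8% and 26.7%, beside 21.2%. Over the family, 21 ranked higher and 18 lower, and with ranks within the whole lists, whose lengths differ, 26 ranked higher and 11 lower. That ranking also moved the background, to 19.8% higher and 13.6% lower.

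The median rank difference, mutant minus control, was 10.1 points at Foxp2 (quartiles -4.30 and 27.3), 1.22 at Foxp1 (-10.6 and 14.8) and -4.74 at Foxp4 (-9.99 and 0.15), beside -0.74 (-9.25 and 6.09) over all shared regions. Differences between libraries of 1 genotype give a rough scale for these values, though with 2 libraries a group they may hold technical spread alone. At Foxp2 shared regions the mutants differed by a median of 6.6 points and the controls by 7.9, while the genotype means differed by a median of 24.2 in either direction. At Foxp1 these values were 7.9, 9.1 and 12.3. At Foxp4 they were 6.4, 8.0 and 7.2, so there the difference between genotypes lay between the 2 differences within them. Over all shared regions they were 4.4, 5 and 7.8. The first 2 values compare single libraries, and the last compares means of 2 libraries. The Foxp2 median was 1.85 with windows around summits in place of intervals, 4.58 without control library 2, 6.51 without mutant library 1 and 20.8 with equal numbers of peaks. The Foxp1 median turned to -1.55 without control library 2 and to -0.62 with summit windows. The Foxp4 median was -7.76 without mutant library 1 and -7.29 without control library 1, but -1.48 with ranks within whole lists and -1.72 with ranks by fold enrichment.

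**Figure D3:**
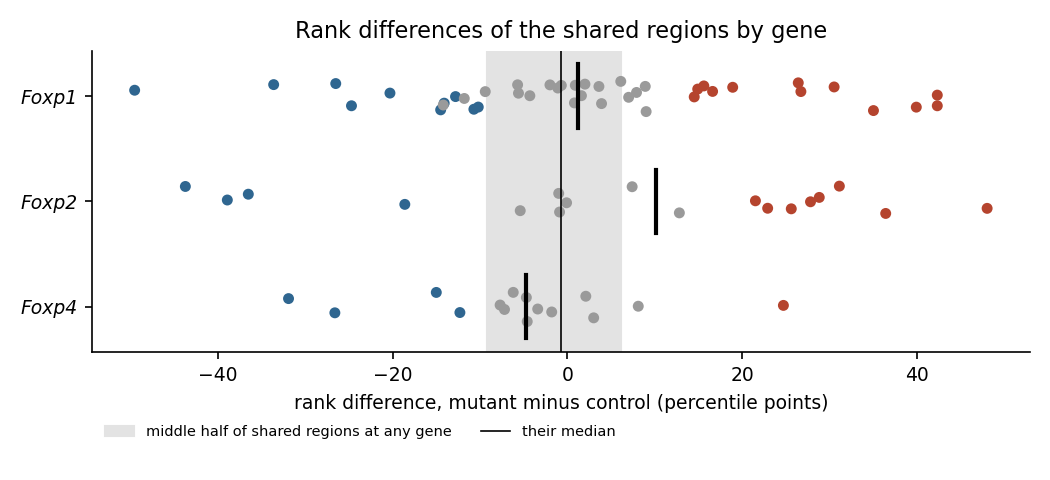
Rank difference of each shared region, mutant minus control, by gene, with red points for regions ranked higher and blue for those ranked lower in both mutants, grey for the rest, and a black bar at the gene's median. The grey band runs from -9.25 to 6.09, the quartiles over shared regions of all genes, and the Foxp2 points run from -43.7 to 48.0.

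The regions of Foxp2 that ranked higher in mutants lay in its middle and near its upper end. The highest-ranking Foxp2 region, 301.7 kb from the lower end (15202436 to 15203691), had 137 and 217 tags in mutants, against 40 and 48 in controls. Its depth-scaled height was 31.2 ± 6.48 in mutants and 9.15 ± 2.53 in controls, a ratio of 3.41, and its percentiles of 80.3 and 82.4 in mutants stood above the 48.4 and 58.6 of controls. With windows around summits in place of intervals, its rank difference of 27.8 points shrank to 1.7 and the call was lost. Such windows split a region of several summits, and the piece with the longest overlap was compared, which need not hold the top summit. Near the upper end, a region 532.9 kb along (15433882 to 15434512) had 94 and 157 tags in mutants, against 39 and 22 in controls. That was the largest height ratio of the family, 3.62, with percentiles of 69.7 and 75.7 in mutants, against 46.8 and 25.8 in controls. The adjacent region (15435274 to 15435935) had 70 and 129 tags in mutants, against 30 and 28 in controls. The largest positive rank difference was at 15400204 to 15401061, with 55 and 105 tags in mutants, against 17 and 22 in controls. Its percentiles were 48.3 and 64.3 in mutants, against 0.6 and 16.0 in controls, with a wide spread within each genotype. A further region (15366725 to 15367855) ranked at 37.9 and 34.4 in mutants, against 7.9 and 2.2 in controls.

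Among the regions near the upper end of Foxp2, 3 ranked lower. The region at 15408053 to 15408847 had 52 and 62 tags in mutants, against 107 and 84 in controls, with percentiles of 24.4 and 21.0 in mutants, against 68.1 and 64.6 in controls. At 15397487 to 15397861 there were 48 and 43 tags in mutants, against 92 and 62 in controls, and a rank difference of -38.9. At 15378115 to 15378900 there were 14 and 19 tags in mutants, against 31 in each control, and a difference of -36.5. The direction turned 4 times along this stretch of Foxp2, at gaps of 2.27 to 10.26 kb between called neighbours. The last turn rests on a region (15411118 to 15412698) whose difference of 21.5 points became -2.1 in the piece compared with summit windows. Opposite neighbours were common elsewhere too. Of adjacent called regions of 1 gene, 44.6% of 14060 pairs over all genes went in opposite directions, beside 20 of 36 pairs at the Foxp genes and 5 of 11 at Foxp2.

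**Figure D4:**
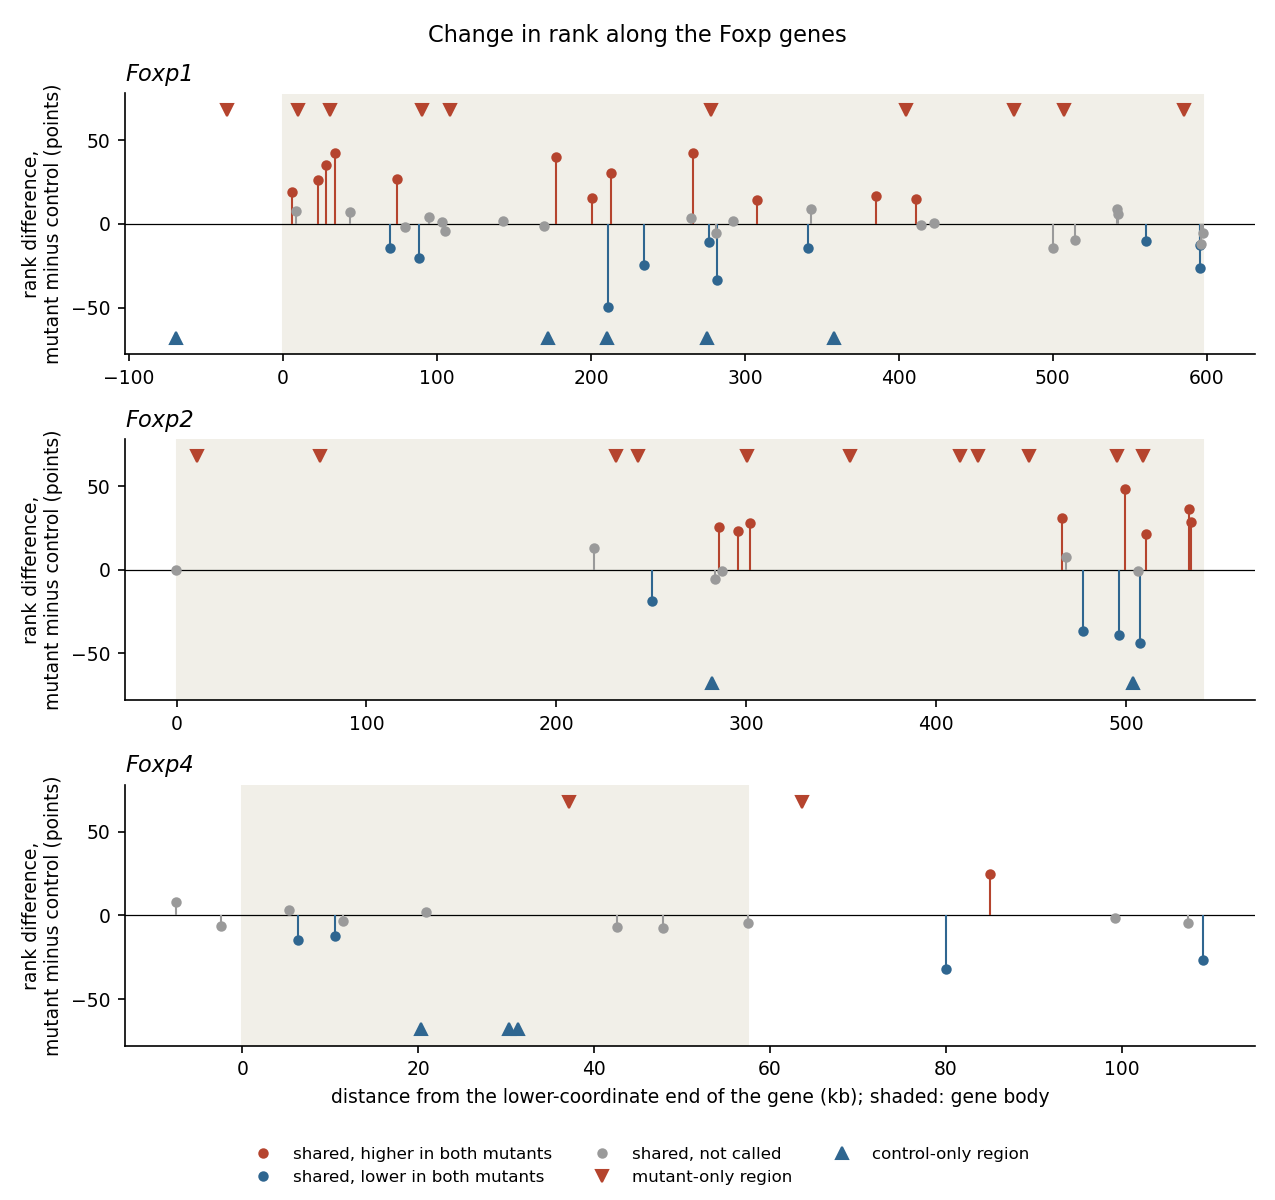
Rank difference of shared regions, mutant minus control, along each gene, by distance from its lower-coordinate end in kb, with the gene body shaded, red for higher and blue for lower in both mutants, and triangles for mutant-only (top) and control-only (bottom) regions. At Foxp2 the called regions lie in the middle and near the upper end, where higher and lower ones are interspersed.

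At Foxp1 the 12 higher and 10 lower calls were spread along the gene, and its 3 highest-ranking regions were not among them. The 4 called regions nearest the lower-coordinate end all ranked higher in mutants, from 5.68 to 33.57 kb along the gene. At the one starting at 98952873, the piece compared with summit windows stood at -5.8 points. The last of the 4 (98958562 to 98959256) had 51 and 64 tags in mutants, against 15 and 18 in controls. Its percentiles were 53.5 and 46.5 in mutants, against 2.8 and 12.6 in controls. The second in this set (98947342 to 98948587) was stronger, with 92 and 163 tags in mutants, against 38 and 42 in controls, a height ratio of 2.70. An equally large difference of 42.3 points was seen at 99191036 to 99191934, with 95 and 111 tags in mutants, against 34 and 23 in controls. The neighbouring region (99189457 to 99190575) was among the 3 highest-ranking of the gene, with 176 and 232 tags in mutants and 150 and 78 in controls, and its percentiles overlapped between genotypes. A region in the body that also overlaps the annotated RNA Gm19665 (99102296 to 99102827) had 46 and 51 tags in mutants, against 16 and 15 in controls.

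The Foxp1 region that ranked lower by most, 210.9 kb along (99135794 to 99136687), had 36 and 40 tags in mutants, against 90 and 73 in controls. Its depth-scaled height was 6.80 ± 0.28 in mutants and 16.6 ± 0.05 in controls, a ratio of 0.41, the lowest of the family. Only 1.31 kb further on (99137994 to 99138645) the next shared region had 100 and 172 tags in mutants, against 50 and 44 in controls, and ranked at 72.8 and 78.1 in mutants, against 43.3 and 46.6 in controls. Another lower-ranking region overlapped the long noncoding RNA gene Gm52870 (99207224 to 99207702), with 21 and 26 tags in mutants, against 47 and 32 in controls. The local background, which the authors' −log10 p is set against, was alike in both genotypes at the first of these regions, at 10.4 and 13.0 tags in mutants and 11.6 and 9.09 in controls.

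**Figure D5:**
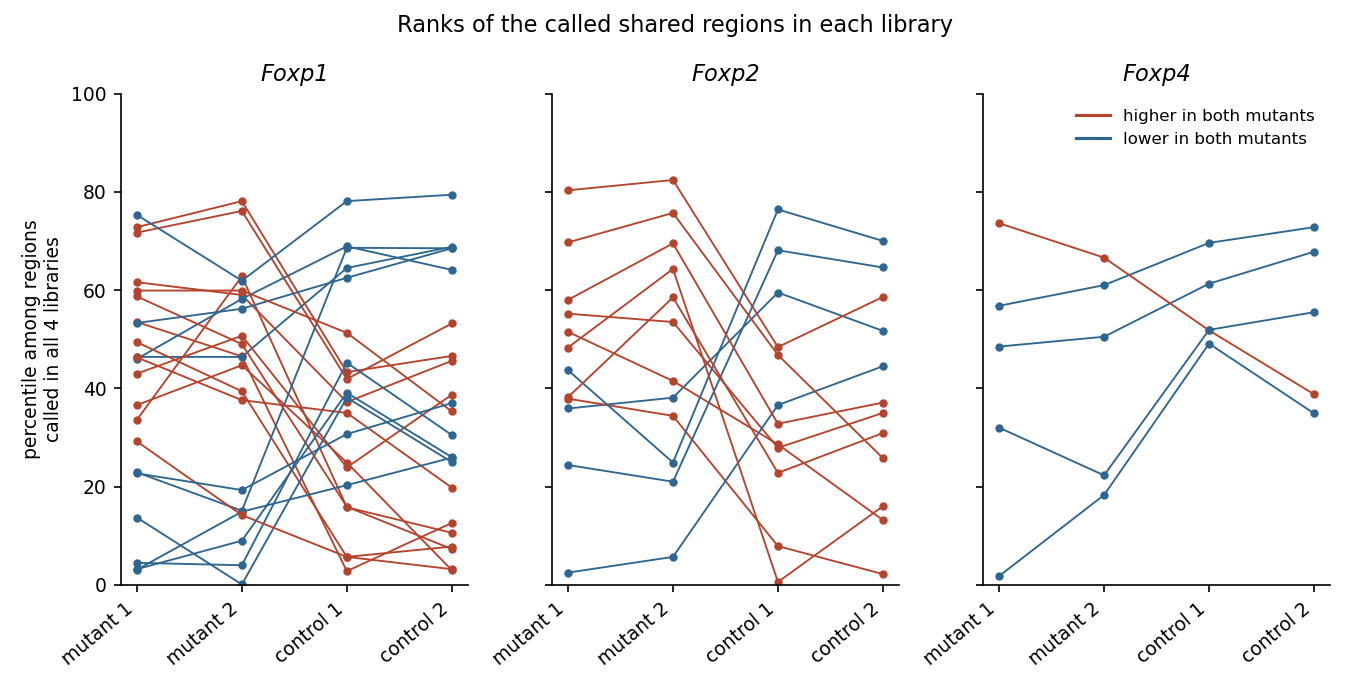
Percentile among regions called in all 4 libraries, for each Foxp region called higher (red) or lower (blue) in both mutants, 1 line per region joining its 4 libraries. Foxp2 holds 8 higher and 4 lower regions, Foxp1 12 and 10, and Foxp4 1 and 4, and lines of both kinds start at high and low percentiles.

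Foxp4 had the smallest differences of the 3 genes by their median size. Beside its start, its highest-ranking regions at 47914608 to 47915403 and 47864414 to 47864974 had height ratios of 0.91 and 0.86. The 1 region that ranked higher (47951361 to 47952972) lay 27.54 kb beyond the gene, over the long noncoding RNA gene Gm29938, with 92 and 104 tags in mutants, against 51 and 31 in controls. Regions on both sides of it ranked lower: at 47946871 to 47947549 there were 18 and 36 tags in mutants, against 46 and 28 in controls, and at 47975926 to 47976960 there were 36 and 38 in mutants, against 61 and 56 in controls. In the body, 47873119 to 47873784 ranked at 48.5 and 50.5 in mutants, against 61.3 and 67.8 in controls. Beside it, 47877218 to 47878057 ranked at 56.8 and 61.0 in mutants, against 69.6 and 72.8 in controls. Neither call held with ranks within whole lists, where the differences were -7.0 and -5.6 points, and the call at 47877218 was also lost without mutant library 1, at -9.7 points.

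Other genes of the pathway gave mixed values. A list of 19 motor column genes held genes that Foxp1 helps to set or that mark its columns, Hoxa5 itself and other Hox genes among them. It had 256 and 276 regions in mutants, against 237 and 244 in controls, with 39 mutant-only and 13 control-only regions. These are 9.61% and 3.2%, near the background of 9.16% and 3.50%. Of its 150 shared regions 39 ranked higher and 41 lower, which is 26% and 27.3% beside 17.7% and 21.2% of all, at a median difference of -1.35. Epha4, a guidance receptor of limb motor axons, had most of both kinds, 11 mutant-only and 7 control-only. Aldh1a2, the retinoic acid enzyme of the lateral motor column, had 15 and 16 regions in mutants, against 6 and 12 in controls. A list of 8 partners and corepressors of Foxp proteins had 6 of 52 shared regions higher and 18 lower, or 11.5% and 34.6% beside the same background. Among 5 genes reported elsewhere as targets of Foxp2 or Foxp4, Cntnap2, a neuronal adhesion gene, had 28 mutant-only and 1 control-only among its 138 regions. The 5 genes together had 14.4% mutant-only and 3.41% control-only, beside 9.16% and 3.50%, but 28 of their 38 mutant-only regions were those of Cntnap2. Srpx2 and Vldlr had neither kind. Cdh2, which encodes N-cadherin, had 7 and 4, and Mef2c, a transcription factor gene, had 3 and 4.

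All 7 motor neuron marker genes, among them Chat, Isl1 and Mnx1, had a region in every library, with 54 and 62 regions in mutants, against 45 and 46 in controls. Of their 31 shared regions 8 ranked higher and 5 lower (25.8% and 16.1%). Markers of other cells had regions too. For every list the shares ranked higher and lower are read beside the 17.7% and 21.2% of all shared regions. Regions of 8 neural progenitor genes numbered 77 and 81 regions in mutants, against 110 and 95 in controls, and 8 of 49 shared regions ranked higher and 17 lower (16.3% and 34.7%). For 6 spinal interneuron genes there were 97 and 102 regions in mutants, against 124 and 111 in controls, with 5 of 68 higher and 35 lower (7.35% and 51.5%). Glial genes had 121 and 118 regions in mutants, against 126 and 120 in controls, and 17 of 70 shared regions higher and 19 lower (24.3% and 27.1%). Mutant-only regions were 11% for motor neuron, 5.19% for progenitor, 3.53% for interneuron and 5.97% for glial genes, beside 9.16% of all assigned regions. Control-only regions were 0%, 13%, 8.82% and 6.97% in the same order, beside 3.50%. Endothelial, blood and microglial, sensory and neural crest, and muscle lists held 54, 32, 68 and 11 regions, with 2, 1, 5 and 2 of their 13, 8, 24 and 5 shared regions higher and 2, 4, 5 and 0 lower. Gata1, a blood gene, had no region. Foxp2 and Foxp4 are also active in progenitors and interneurons, and the part of such cells in the Foxp values was not tested.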

How the data were processed

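Chromatin accessibility was measured in 2 Hoxa5-deficient and 2 control libraries, as their labels give them. Per the submitters' processing notes, the build was mm10 and the tools were MACS2 2.2.4, Bowtie2 2.3.4.3, FastQC 0.11.9 and SAMtools 1.9. Their settings, and whether reads were shifted for Tn5 insertion, are not given in the sources used here. Each library has its own peak list, deposited by the authors with a score capped at 1000, a fold enrichment ratio over local background, and −log10 p and −log10 q per summit. The lowest deposited −log10 p was 2.00. Other deposited columns are base positions. The fold and p-values are the authors' and each belongs to 1 peak.

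Regions, ranks and counts were computed with Python 3.11.15, NumPy 2.4.6, pandas 2.3.3 and SciPy 1.17.1, as described beside the results, with 21887 protein-coding genes of RefSeq GRCm38.p6. The summit pileup was the whole number of tags that meets the deposited fold and −log10 p within 0.001. It was found for 100% of 3000 summits per library. These were drawn at random under a set limit of −log10 p, so the strongest summits were not tried in that check. On the autosomes, X and Y, lists held 192771 and 206114 summits in mutants and 165866 and 163016 in controls. Read depth is not stated, so no counting intervals are given. The steps were checked on simulated data. Named regions followed a fixed rule: gene ends and promoters, and per gene the 3 highest-ranking shared regions and up to 3 with the largest rise and fall. The rule also covered regions in 1 genotype alone, but of the mutant-only ones the stronger are given by position and the rest as ranges of tags. Others were chosen after their values were seen. Members and lists were chosen with earlier results of these data known. Alternatives were a stricter q, equal peak numbers, summit windows, gene bodies alone, ranks by fold or within whole lists, and leaving out each library.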

Additional observations from a re-analysis of the deposited data

How the results depend on the processing

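No paired analysis was possible because the results are descriptions and come from no test. Of 62 recomputed family totals, 49 stayed within 1.5 times or 1 SD. Peaks with −log10 q of 5 or more left 43 regions in all 4 libraries, 6 control-only and 11 lower-ranking ones, and a ratio of region numbers of 1.35. Equal peak numbers gave a ratio of 1.039. Windows of 100 bp on each side of summits gave 17 control-only regions and a median difference of -2.06, and whole-list ranks gave 11 lower-ranking regions and a median of 3.675. Leaving out each library in turn gave 12 to 25 control-only and 29 to 47 mutant-only regions. Of single called regions, 3 changed direction: Foxp1 at 98952873 (-5.8) and 99309959 (-24.0), and Foxp2 at 15411118 (-2.1). Each did so with summit windows, where the piece compared need not hold the top summit. Calls on single regions were lost with their direction kept in 25 further cases, and those at Foxp1 99484948, 99201231 and 99520452 held in 5, 6 and 6 of 10 alternatives. Besides these, some called regions were no longer shared, and so had no call, in up to 2 of 10 alternatives. The cause was not tested. There were 2 libraries a group, and depth was recovered only relative to background. Summits under 10 to 12 tags could not be called at the genome-wide background, and values near that size lie close to the limit. A region without a peak in a library may thus hold a weak summit there, which bears on mutant-only and control-only regions with few tags.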
